A study of Mus musculus with 6 samples.

Results

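The genes described here are 36 components and regulators of the NF-kB pathway, measured in type 1 conventional dendritic cells (cDC1s). These cells are best known for showing captured antigen to CD8 T cells. They were a fixed list of symbols, looked up by Ensembl gene identifier in a table of 32285 features. All 36 were found and all 36 passed the filter on low counts, among 12568 genes tested. They came from the mLN (not spelled out in the labels) of C57BL/6 mice and were isolated by cell sorting, 24 h after 50 µg of house dust mite extract (HDM) had been given into the nose. The control group is 3 libraries from wild-type mice (WT), and the other group is 3 libraries from mice with the genotype Vps33BdeltaDC, a conditional knock-out of Vps33b (KO). All mice of both groups had received HDM, so no library shows the pathway before exposure. The sources used here do not give the promoter that drives the deletion, the deleted exons, the ages of the mice or the number of mice per library. Nothing says that the libraries came from separate animals, so each p-value reflects only the spread among these libraries, and that spread may be technical.

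NF-kB is a family of dimeric transcription factors that are held inactive in resting cells. In the canonical arm, receptors of the Toll-like, interleukin-1 and TNF families act through TRAF and RIPK adaptors, ubiquitin chains and the TAK1 kinase on the IKK complex. IKK marks the inhibitory IkB proteins for destruction and so frees dimers of RelA, c-Rel and the Nfkb1 product. In the non-canonical arm, receptors such as CD40 and the lymphotoxin-beta receptor remove a TRAF2, TRAF3 and cIAP complex that otherwise destroys the kinase NIK. NIK and IKK-alpha then process the Nfkb2 precursor, which gives dimers with RelB. Many inhibitors of the pathway are themselves NF-kB targets, and RelB is known for its part in dendritic cell maturation. The 36 genes were divided into 14 of the canonical arm, 8 of the non-canonical arm (Nfkb2, Relb, Map3k14, Chuk, Traf2, Traf3, Birc2 and Birc3) and 14 that act in both or in neither arm alone. Chuk, Traf2, Birc2 and Birc3 also act in canonical TNF signalling.

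Promoter sequence is shown first, because several of these genes carry the site that the pathway's own factors bind. RefSeq promoters of the GRCm38.p6 build, from 250 bases before to 50 after each start, were matched by symbol for 29 of the 36 genes. Ikbkb, Map3k8, Nfkb1, Nfkbiz, Relb, Ripk2 and Sharpin had no entry. The 10-letter NF-kB consensus, searched on both strands, was found in 11 of these 29 (37.9%) and in 9.55% of all 27025 genes with a promoter. The consensus is given by name because it allows alternative letters at some positions. A match is a description of the letters, not a measured binding site. The following matches are shown because the same letters occur in at least 1 other of these genes. The list leaves out a further match shared by Nfkb2 and Tnip1, which overlaps the listed one and lies in the stretches printed further down. Each match in the list is written on the strand that matches.
Nfkbia: GGGAATTTCC
Map3k7: GGGAATTTCC
Rel: GGGGATTTCC
Tnfaip3: GGGGATTTCC
Traf3: GGGGATTTCC
Cyld: GGGACTTTCC
Nfkb2: GGGACTTTCC
Tnip1: GGGGAATTCC
Nfkb2: GGGGAATTCC
The match in Nfkbia lay at chr12:55492667-55492676, from 29 to 20 bases before the start. That of Tnfaip3 lay at chr10:19015413-19015422, from 12 to 3 bases before, that of Traf3 at chr12:111166360-111166369, from 10 to 1 bases before, and that of Cyld at chr8:88696873-88696882, from 155 to 146 bases before. The match that Nfkb2 shares with Cyld lay at chr19:46305705-46305714, after another annotated start of Nfkb2, and not in the stretch printed next. Bcl3, Nfkbie and Sod2 also held a match.

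Upstream sequence of 250 bases is given for 4 inhibitors or precursors of the pathway whose transcripts are described below, with consensus matches in capitals and overlapping matches run together. Nfkbia is at chr12:55492648-55492897 (minus strand), Nfkb2 at chr19:46304487-46304736 (plus strand), Tnfaip3 at chr10:19015411-19015660 (minus strand) and Tnip1 at chr11:54962941-54963190 (minus strand).
Nfkbia: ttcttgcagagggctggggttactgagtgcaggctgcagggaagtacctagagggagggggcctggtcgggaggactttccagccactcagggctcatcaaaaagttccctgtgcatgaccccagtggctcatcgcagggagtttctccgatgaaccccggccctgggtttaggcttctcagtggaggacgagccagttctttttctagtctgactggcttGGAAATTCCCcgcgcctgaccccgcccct
Nfkb2: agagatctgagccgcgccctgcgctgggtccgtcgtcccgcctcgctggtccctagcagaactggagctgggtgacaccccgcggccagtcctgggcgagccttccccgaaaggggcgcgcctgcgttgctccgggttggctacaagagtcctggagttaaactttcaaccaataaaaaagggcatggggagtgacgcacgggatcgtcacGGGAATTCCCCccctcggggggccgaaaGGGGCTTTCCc
Tnfaip3: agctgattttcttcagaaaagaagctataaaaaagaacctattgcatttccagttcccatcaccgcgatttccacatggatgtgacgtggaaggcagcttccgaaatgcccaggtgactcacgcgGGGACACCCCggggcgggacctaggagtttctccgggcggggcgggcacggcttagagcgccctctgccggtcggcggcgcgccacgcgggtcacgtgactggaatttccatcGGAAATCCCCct
Tnip1: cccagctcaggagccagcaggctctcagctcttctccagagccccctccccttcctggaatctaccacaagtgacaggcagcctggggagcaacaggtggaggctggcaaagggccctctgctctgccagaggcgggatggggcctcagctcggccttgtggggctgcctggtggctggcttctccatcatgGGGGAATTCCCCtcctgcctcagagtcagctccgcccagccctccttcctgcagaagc
Nfkb2 and Tnip1 each held 3 overlapping or neighbouring matches in this stretch, Tnfaip3 held 2 and Nfkbia held 1. The 11 genes with a match had a median level of 240.4 TPM (a share of the library that allows for transcript length) and the 18 genes without had 122 TPM, and their ranges of 12.9 to 1598 and 9.97 to 1979 TPM overlapped. Their median log2 fold changes, KO against WT, were -0.11 and 0.02.

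Libraries held 11755944 to 18450678 counts. Vps33b, the targeted gene, was at 16.2, 19.1 and 13.8 CPM (counts relative to the scaled library size) for WT and at 5.0, 7.01 and 8.29 CPM for KO, so that every KO library lay below every WT library. An exact two-sided permutation test gave p = 0.1, the smallest value that 3 against 3 libraries allow. The log2 fold change of Vps33b was -1.28 ± 0.27 (SE, edgeR adjusted p = 0.834). The targeted gene itself therefore did not pass the edgeR test at 0.05, so a gene that does not pass is not thereby shown to be unchanged. The 13 genes listed as cDC1 markers were all tested, and their summed level was 4119.8 to 4709 CPM for WT and 4135 to 4431 CPM for KO. The sum does not show which of these genes it rests on. The cDC1 receptor gene Xcr1 was low, at 13.5, 44.6 and 13.1 CPM for WT and 9.42, 5.72 and 11.4 CPM for KO, without overlap. Of the 13 cDC1 markers 0 passed the test, and 0 were higher and 4 lower (Clec9a, Itgax, Wdfy4 and Xcr1) at an unadjusted p under 0.05, where 2.71% of all genes tested were higher and 3.06% lower. Their median log2 fold change was -0.38, and their mean centred log2 CPM was 0.12, 0.50 and 0.06 for WT and -0.15, -0.36 and -0.17 for KO, so that this score did not overlap although the summed levels did. Its part in the results on the 36 genes was not tested. Ccr7, the chemokine receptor of mature dendritic cells, was at 4365 to 5469 CPM. Markers of monocytes or macrophages summed to 199 to 380.1 CPM for WT and to 175, 187 and 692 CPM for KO, with the highest sum in KO replicate 3. Markers of T cells summed to 169 to 192 CPM, of B cells to 224 to 715 CPM, of cDC2s to 281 to 417 CPM, of pDCs to 343 to 400.2 CPM, of NK cells to 4.82 to 13.8 CPM and of neutrophils to 0.724 to 8.73 CPM. None of these markers was at 0 in every library. In bulk RNA, fewer cells of a type and less RNA per cell cannot be told apart.

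Transcript levels were high for most of the pathway in both groups, and the highest belonged to inhibitors, to targets and to the non-canonical subunits. Over the 6 libraries the median of the 36 genes was 162 TPM, against 16.3 TPM for all genes tested, and 33 of the 36 lay above that median. Gadd45b, a stress-induced target, stood at 1979 ± 106 TPM, Nfkbia at 1598 ± 114, Relb at 1493 ± 153, Traf1 at 1108 ± 78.1 and Tnfaip3 at 917 ± 164 TPM (SD, n = 6 libraries of both groups). Nfkb2, Birc2 and Birc3 followed at 712 ± 87.7, 618 ± 106 and 610 ± 82.0 TPM, so that 8 genes were above 500 TPM. The intervals of 1 SD overlapped between Nfkbia and Relb and between each pair of neighbours from Traf1 down to Birc3. Traf1 lay above Tnfaip3 in every library, but below it when all exons of a gene were merged for the length (630.1 and 820.1 TPM). The other neighbours in question changed order between libraries, so those orders are not resolved. At the other end, 5 genes were under 25 TPM. These were Ikbkg, the regulatory subunit of IKK (22.2 ± 1.94 TPM), Map3k7, which encodes TAK1 (20.4 ± 5.55), Ripk2, the adaptor kinase of NOD receptors (14.1 ± 2.33), Sod2, the mitochondrial superoxide dismutase (12.9 ± 2.0), and Ikbke, an IKK-related kinase (9.97 ± 2.44 TPM), and each overlapped its neighbours in this order. Sod2 is a common NF-kB target, yet it stood near the bottom of the list while Gadd45b stood at the top.

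TPM was computed with the length of the principal transcript. With all exons of a gene merged, 6 genes moved by more than 1.5 times: Ikbkb (410.3 TPM, and 112 TPM with merged exons), Nfkb1 (169 and 84.1), Ikbke (9.97 and 5.25), Traf1 (1108 and 630.1), Traf5 (73.9 and 46.4) and Sharpin (156 and 104). Gadd45b, Nfkbia and Relb were the 3 highest either way.

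The 5 subunits of the factor itself differed widely in level and little between groups. Relb, the non-canonical partner, was at 1503, 1305 and 1431 CPM for WT and at 1502, 1351 and 1554 CPM for KO, with a log2 fold change of 0.06 ± 0.12 (SE). Nfkb2, the precursor of the other non-canonical subunit, was at 1018, 852 and 1012 CPM for WT and 980.1, 893 and 1108 CPM for KO (0.05 ± 0.13). For both genes, replicate 2 was the lowest library of its group. An overlap on the opposite strand covers 18.1% of the exon bases of Nfkb2 (Psd and AC114539.1), and no source used here states whether counting used strand, so its count is less certain. Rela, the main activating subunit, was at 309, 326 and 317 CPM for WT and 296, 338 and 345 CPM for KO (0.04 ± 0.12). Rel, the c-Rel subunit of lymphoid and dendritic cells, was at 719, 889.8 and 845 CPM for WT and 692, 847 and 729 CPM for KO (-0.11 ± 0.13). Nfkb1 was at 320.5, 260.4 and 351 CPM for WT and 263, 264 and 361 CPM for KO (-0.07 ± 0.16). In each of the 5 genes the WT and KO libraries overlapped.

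Within a library, the non-canonical subunits outweighed the canonical ones. On the TPM scale Relb held 51.3 ± 1.21% of the summed level of the 5 subunits in WT and 52.2 ± 1.65% in KO (SD, n = 3 each), and Nfkb2 held 24.5 ± 1.02% and 24.8 ± 1.02%. Rela held 9.40 ± 0.81% and 9.44 ± 0.876%, Rel 8.83 ± 1.39% and 7.99 ± 1.29%, and Nfkb1 6.03 ± 0.602% and 5.61 ± 0.695%. The ratio of Relb to Rela was 5.99, 4.92 and 5.55 for WT and 6.24, 4.92 and 5.55 for KO. That of Nfkb2 to Nfkb1 was 4.16, 4.29 and 3.78 in WT and 4.88, 4.43 and 4.03 in KO. Both ratios overlapped between the groups. With merged exon lengths the mean ratios over the 6 libraries were 3.55 and 8.55, so their size depends on the length used while both stayed above 1. Transcript ratios do not give the amounts of processed protein.

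The 3 classical inhibitors were present at steady levels. Nfkbia, the fast feedback inhibitor, was at 1101, 1242 and 982 CPM for WT and at 1139.8, 1107 and 1059 CPM for KO, with a log2 fold change of -0.01 ± 0.13. The 3 KO values lay inside the range of the WT values. Nfkbie was at 335, 373 and 325 CPM for WT and 362, 357 and 358 CPM for KO (0.06 ± 0.12), and Nfkbib was at 289, 342 and 295 CPM for WT and 295, 346 and 320.3 CPM for KO (0.06 ± 0.13). Nfkbib shares 16.4% of its exon bases with opposite-strand genes (Ccer2 and Sirt2). The nuclear members were lower in level. Nfkbiz, a co-activator induced by Toll-like receptors, was at 162 ± 14.3 CPM for WT and 154 ± 6.15 CPM for KO (-0.07 ± 0.12), and Bcl3, which binds dimers of the precursors' products, was at 56.1 ± 8.18 and 51.5 ± 8.09 CPM (-0.12 ± 0.17).

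The kinase genes spanned a wide range and none separated the groups. Ikbkb, the catalytic IKK subunit of the canonical arm, was at 741, 559.6 and 675 CPM for WT and 683, 532 and 649 CPM for KO (log2 fold change -0.08 ± 0.15), with replicate 2 the lowest of both groups. Chuk, which encodes IKK-alpha, was at 149.9, 145 and 141 CPM for WT and 158, 143 and 135 CPM for KO (0.00 ± 0.12). Map3k14, which encodes NIK, the kinase that the non-canonical arm depends on, was at 410, 346 and 431 CPM for WT and 392, 355 and 482 CPM for KO (0.05 ± 0.15). Its transcript stood at 2.69 ± 0.0537 times that of Traf3, an adaptor in the complex that destroys NIK, in WT and at 2.98 ± 0.549 times in KO, on the TPM scale. The KO ratios were 2.5, 2.86 and 3.58, the last in KO replicate 3. Map3k7 was at 63.8, 33.7 and 59.2 CPM for WT and 53.2, 41.5 and 48.8 CPM for KO (-0.14 ± 0.22), so WT replicate 2 alone lay below all KO libraries. Tab2, which links TAK1 to ubiquitin chains, was at 389 ± 39.2 CPM for WT and 364 ± 29.5 CPM for KO (-0.09 ± 0.13). Map3k8, which encodes the kinase TPL2, was at 232 ± 34.9 and 210.2 ± 23.2 CPM (-0.14 ± 0.14), Tbk1 at 124 ± 12.9 and 122 ± 18.2 CPM (-0.03 ± 0.15), Ikbkg at 62.8 ± 8.02 and 69.4 ± 4.71 CPM (0.14 ± 0.15) and Ikbke at 15.2 ± 1.80 and 13.1 ± 4.33 CPM (-0.20 ± 0.26).

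Birc2, which encodes cIAP1, had the smallest p of the 36 genes and did not pass. It was at 1013, 956 and 933 CPM for WT and 977, 764 and 740 CPM for KO, with a log2 fold change of -0.23 ± 0.13 with an edgeR adjusted p of 0.853. KO replicate 1 lay within the WT range and KO replicates 2 and 3 lay below it. Birc3, which encodes the related ligase cIAP2, was at 779, 674 and 725 CPM for WT and 762, 615 and 702 CPM for KO (-0.07 ± 0.13). The ratio of Birc2 to Birc3 on the TPM scale was 1.04, 1.14 and 1.03 in WT and 1.03, 0.995 and 0.844 in KO. Traf1, an adaptor that is itself an NF-kB target, was at 1651, 1576 and 1658 CPM for WT and 1700.2, 1625 and 1782 CPM for KO (0.06 ± 0.11), the smallest spread of any of the 36 genes within groups (SD 0.06 on the log2 scale). Traf2 was at 157 ± 13.6 CPM for WT and 164 ± 10.1 CPM for KO, Traf3 at 245 ± 26.8 and 230.1 ± 27.5 CPM, Traf5 at 62.8 ± 7.38 and 64.5 ± 10.8 CPM, and Traf6, the adaptor of Toll-like receptors, at 227 ± 16 and 228 ± 10 CPM. Their log2 fold changes were 0.06, -0.09, 0.03 and 0.00. Ripk1, the adaptor kinase of TNF receptor 1, was at 114 ± 18.5 and 109 ± 14.9 CPM (-0.07 ± 0.16). Ripk2 was at 16.6, 22.9 and 15 CPM for WT and 14.8, 15.7 and 15.3 CPM for KO (-0.23 ± 0.22), with WT replicate 2 alone above the rest.

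The genes of the linear ubiquitin assembly complex and of its opposing enzyme did not differ beyond their spread. Rnf31, the catalytic subunit HOIP, was at 103, 79.6 and 92.3 CPM for WT and 92.6, 90.3 and 124 CPM for KO (0.15 ± 0.16), and KO replicate 3 alone was above the WT range. Sharpin was at 116 ± 4.65 and 121 ± 6.78 CPM (0.06 ± 0.12). Otulin, which cleaves linear chains, was at 79.9 ± 8.67 and 80.5 ± 6.72 CPM (0.01 ± 0.14).

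The 3 genes listed as feedback inhibitors (Tnfaip3, Tnip1 and Cyld) all had negative log2 fold changes, and in none did the groups separate. This list left out the 5 IkB proteins, of which 2 lay above and 3 below 0, with Nfkbia at -0.01. Tnfaip3, a ubiquitin-editing enzyme that ends NF-kB signalling, was at 2045, 1829 and 1810.3 CPM for WT and 1943, 1427 and 1547 CPM for KO (-0.21 ± 0.14, edgeR adjusted p = 0.853). Tnip1, which binds the Tnfaip3 product, was at 364, 356 and 309 CPM for WT and 344, 307 and 291 CPM for KO (-0.13 ± 0.13). Cyld, a deubiquitinase, was at 216, 185 and 192 CPM for WT and 196, 166 and 184 CPM for KO (-0.12 ± 0.13). KO replicates 2 and 3 were the lowest of the 6 libraries for each of the 3 genes, as they were for 12.4% of all genes tested. Of 16 genes of the mature CCR7 programme 0 passed the test, and 2 were higher (Cd80 and Socs2) and 0 lower at an unadjusted p under 0.05, beside 2.71% and 3.06% of all genes tested. Relb belongs both to these 16 genes and to the pathway genes described here. Of the 16 genes 15 lay above 0, with a median of 0.18. KO replicates 2 and 3 had the highest mean score of these genes (mean centred log2 CPM of 0.13 and 0.25, against -0.14 to -0.07 in the other libraries), and its part in the values was not tested. Without KO replicate 1 the log2 fold changes were -0.35 for Tnfaip3 (edgeR adjusted p = 0.257) and -0.36 for Birc2 (adjusted p = 0.233), both under 0.05 before adjustment. In that comparison 12.3% of all genes had an unadjusted p under 0.05, more than the 5.77% with all libraries.

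Gadd45b was at 1006, 1178 and 989 CPM for WT and 1187, 1170.4 and 1162 CPM for KO, with a log2 fold change of 0.15 ± 0.12. The KO values were close together, and WT replicate 2 lay among them. Sod2 was at 36.3, 30.4 and 26.2 CPM for WT and 28.7, 35.6 and 41.7 CPM for KO (0.19 ± 0.20), and KO replicate 3, which had the most monocyte or macrophage transcripts, had the highest value. The part of those transcripts in this value was not tested.

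Between KO and WT, none of the 36 genes passed the test. Of the 36 genes, 0 had an edgeR quasi-likelihood adjusted p under 0.05 (0.0% of all genes tested), and DESeq2 and limma-voom also called 0 of the 36. Over all 12568 genes edgeR called 0 and limma-voom 0. DESeq2, run without the edgeR filter on low counts, called 7 among 18374 genes. At an unadjusted p under 0.05 there were 0 of the 36 genes, where 5.77% of all genes tested (725) lay under it. In CPM, the WT and KO libraries did not overlap for 0 of the 36 genes, against 10.6% of all genes tested (5.46% higher and 5.19% lower in KO). The log2 fold changes ran from -0.23 to 0.19, with 17 above and 19 below 0 and a median of -0.02, beside a median of 0.004 for all genes tested.

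The intervals give the size of difference that each gene could still hold. The 95% interval of the log2 fold change lay within 1.5-fold either way (0.58 on the log2 scale) for 32 of the 36 genes and within 2-fold for 36 of 36. The same held for 35.9% and 65.3% of all genes tested, and for 60.8% and 93.8% of the 7330 genes at least as abundant as the lowest of the 36 (14.1 CPM). The 4 genes with wider intervals were Ikbke (-0.77 to 0.37), Ripk2 (-0.73 to 0.26), Map3k7 (-0.63 to 0.35) and Sod2 (-0.24 to 0.62), which with Bcl3, Traf5 and Ikbkg were among the least counted. The counts of the 36 genes ran from 110 to 37212 per library, and 28 of them had 1000 or more in every library.

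**Figure D1:**
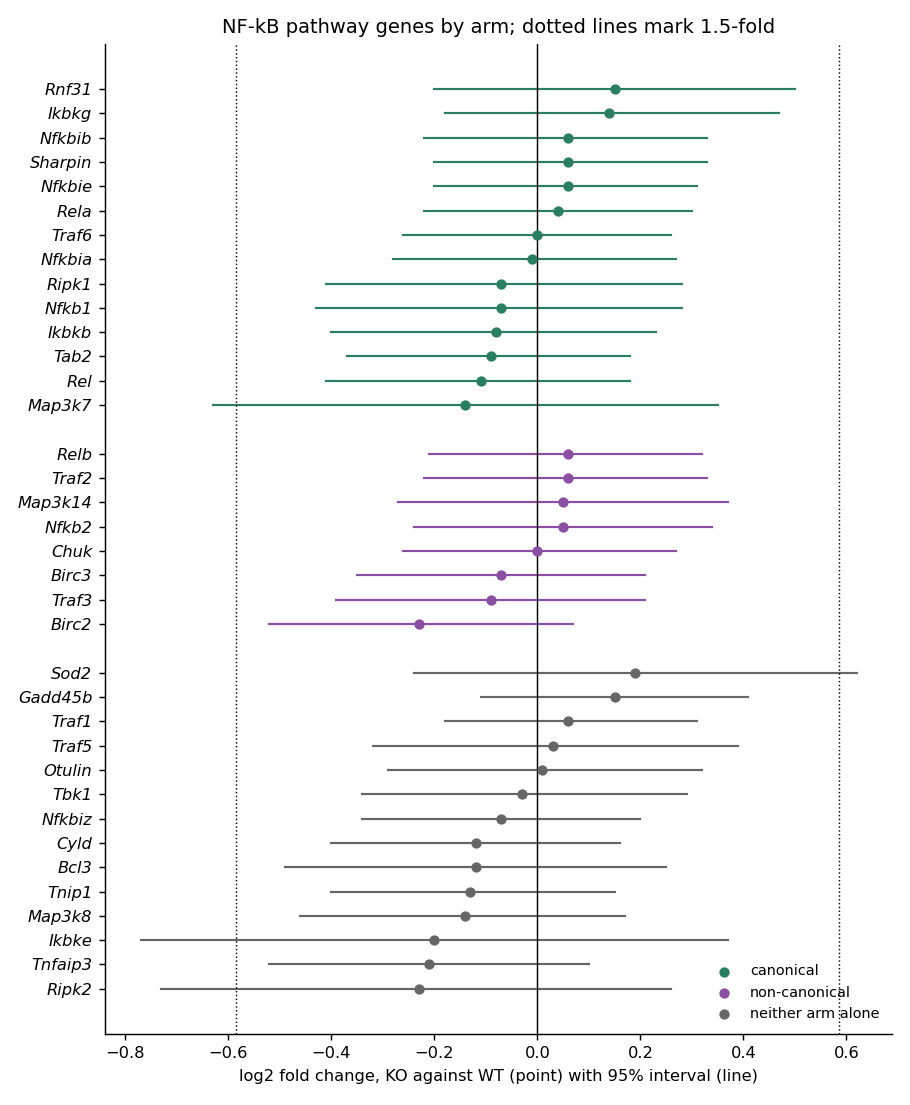
Log2 fold change of KO against WT for the 36 genes (points) with 95% intervals (lines), grouped by arm. Every interval includes 0, and those of Map3k7, Ikbke, Ripk2 and Sod2 cross a dotted line at 1.5-fold.

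The medians of the canonical and non-canonical arms both lay close to 0. The 14 canonical genes had a median log2 fold change of 0.00, from -0.14 (Map3k7) to 0.15 (Rnf31), with 7 above and 7 below 0. The 8 non-canonical genes had a median of 0.02, from -0.23 (Birc2) to 0.06 (Relb and Traf2), with 5 above and 3 below 0. With the 4 genes that also act in canonical TNF signalling left out, the median of Nfkb2, Relb, Map3k14 and Traf3 was 0.05. The 14 genes of neither arm alone had a median of -0.09, with 5 above and 9 below 0. The mean centred log2 CPM of the canonical arm was 0.02, -0.07 and 0.05 for WT and -0.03, -0.04 and 0.07 for KO. That of the non-canonical arm was 0.08, -0.10 and 0.06 in WT and 0.07, -0.14 and 0.03 in KO. The difference between libraries of a group was therefore larger than the difference between the groups in both arms.

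**Figure D2:**
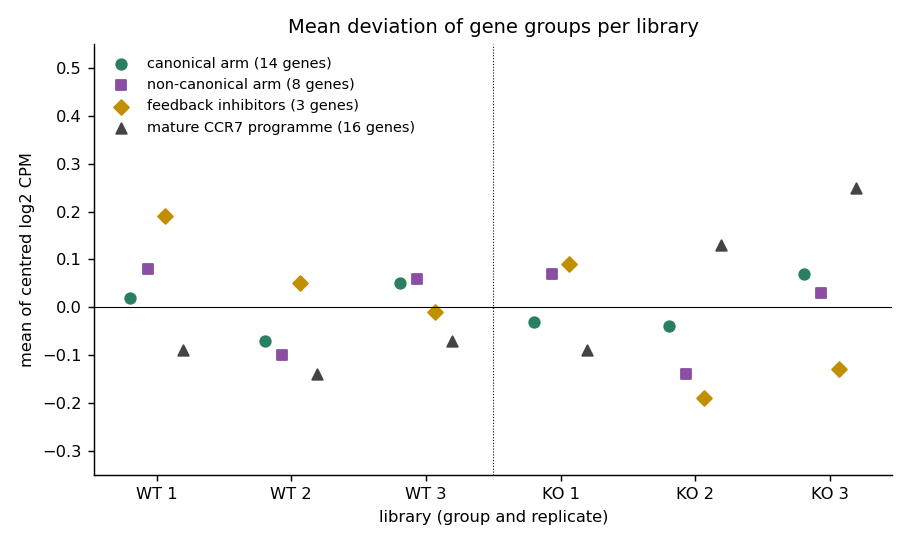
Mean centred log2 CPM per library for the canonical arm, the non-canonical arm, the feedback inhibitors and the mature CCR7 programme. The non-canonical arm is lowest in WT replicate 2 and KO replicate 2, at -0.10 and -0.14, and the mature programme is highest in KO replicates 2 and 3.

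Some of the 36 genes varied together between libraries, a pattern noticed after their values were seen. WT replicate 2 and KO replicate 2 were the 2 lowest of the 6 libraries for 12 of the 36 genes (33.3%), whereas this held for 9.26% of all genes tested. The 12 were Nfkb2, Relb, Ikbkb, Map3k7, Map3k14, Traf1, Traf2, Traf3, Traf6, Birc3, Ripk1 and Rnf31. They made up 6 of the 8 non-canonical genes, 5 of the 14 canonical genes and 1 of the 14 others. Rel and Nfkbib ran the other way and were highest in these 2 libraries, as were 8.56% of all genes tested. Relb is also a gene of the mature CCR7 programme. The mean scores of WT replicate 2 and KO replicate 2 were -0.14 and 0.13 for the mature CCR7 programme and 0.50 and -0.36 for cDC1 markers. Their monocyte or macrophage markers summed to 199 and 175 CPM. KO replicate 1 and WT replicate 3 were similar, at 187 and 217 CPM, and WT replicate 1 and KO replicate 3 were higher, at 380.1 and 692 CPM. The part of these lists in the pattern was not tested. KO replicates 2 and 3 were the 2 lowest libraries for 7 of the 36 genes (19.4%), beside 12.4% of all genes: Bcl3, Ikbke, Tbk1, Birc2, Tnfaip3, Tnip1 and Cyld. Every pair of libraries was examined in both directions, so some pairs stand out by selection. WT replicate 1 and KO replicate 1 were the 2 highest for 8 of the 36 genes, a larger share than the 8.39% of all genes. WT replicate 2 and KO replicate 1 were the 2 highest for 7 of the 36, also a larger share than the 7.86% of all genes.

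**Figure D3:**
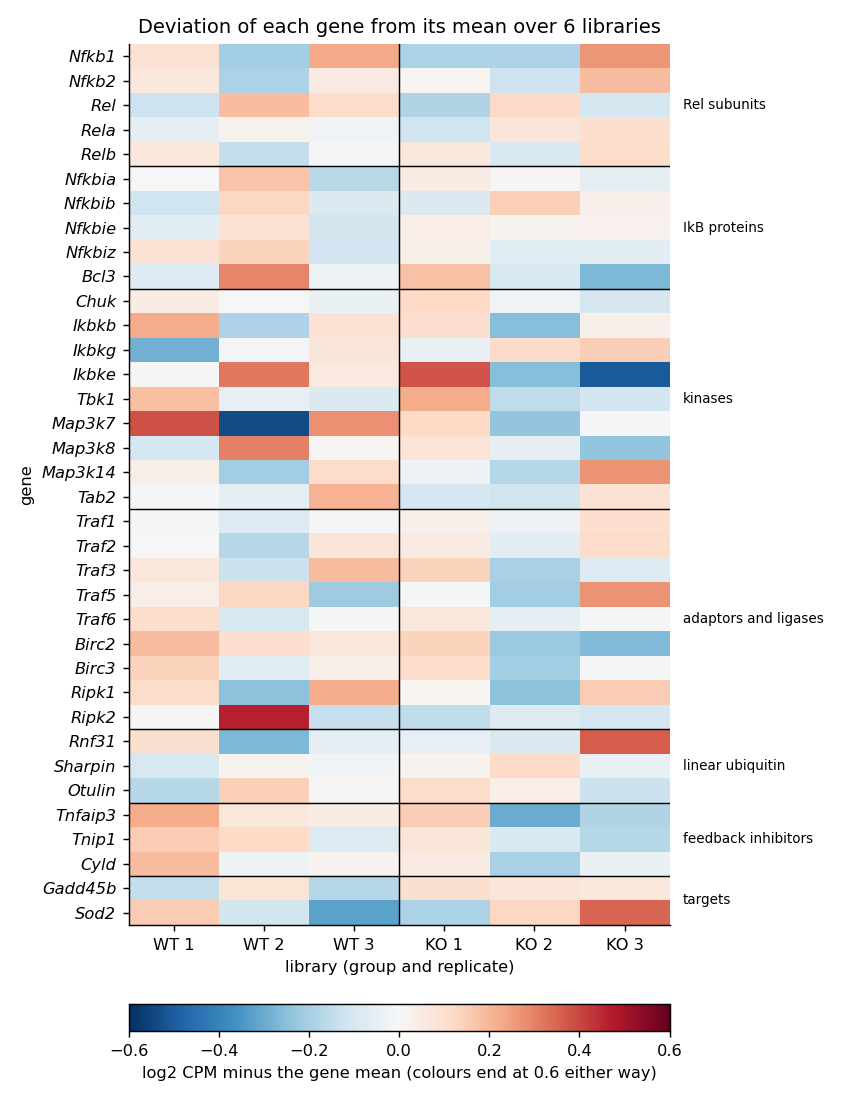
Deviation of log2 CPM of each gene from its mean over the 6 libraries, by role, with red above and blue below the mean. Columns WT 2 and KO 2 are blue for most non-canonical genes, such as Nfkb2, Relb and Map3k14, and no row changes colour cleanly between WT and KO.

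The 36 genes also varied less, in the median, between libraries of a group than all genes tested. The median SD of log2 CPM within groups was 0.15 for them, 0.28 for all genes tested and 0.20 for the genes at least as abundant as the lowest of them. The median size of the log2 fold change was 0.07, 0.19 and 0.14 in the same order. Map3k7 (SD 0.38) and Ikbke (0.34) varied most, and Traf1 (0.06), Nfkbie (0.07) and Sharpin (0.07) least. The genes used for the last comparison were matched only by a lower limit on abundance.

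**Figure D4:**
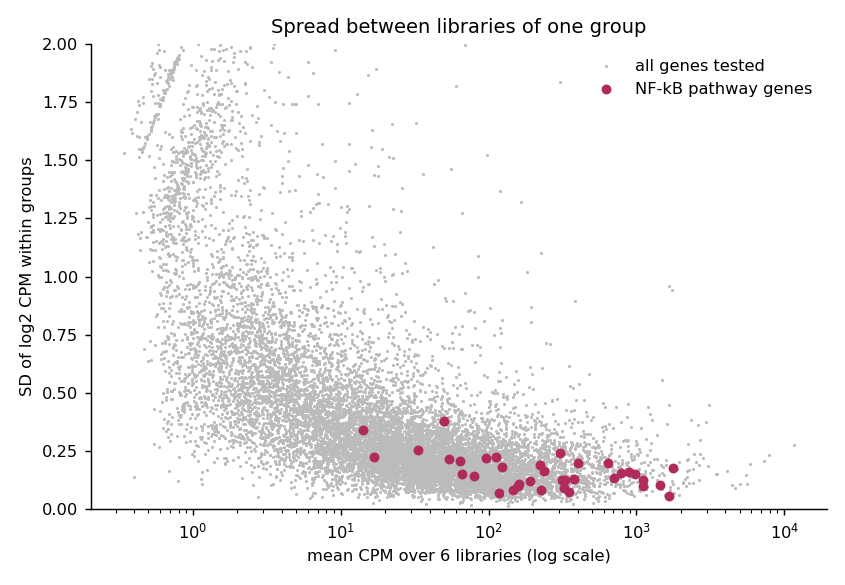
SD of log2 CPM within groups against mean CPM (log axis) for all genes tested (grey) and the 36 NF-kB pathway genes (dark red), with 152 genes above the top of the axis at 2 not drawn. The pathway genes lie between 0.06 and 0.38, mostly at levels above 50 CPM.

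Other genes of the pathway were read from 3 further lists, and none of their genes passed the test. Of 26 receptors and proximal adaptors, 2 (Tnfrsf4 and Tnfrsf9) were higher and 1 (Tlr11) was lower in KO at an unadjusted p under 0.05 (2.71% and 3.06% of all genes tested), with a median log2 fold change of 0.02. The smallest p-values were those of 2 TNF receptor family genes. Tnfrsf4, which encodes OX40, was at 305, 339 and 258 CPM for WT and 399, 399.9 and 393 CPM for KO. Its log2 fold change was 0.40 ± 0.13 (edgeR adjusted p = 0.834), and every KO library lay above every WT library. The groups did not overlap for 4 of the 26 genes, beside 10.6% of all genes tested. Tnfrsf9, which encodes 4-1BB, was at 167, 158 and 190 CPM for WT and 189.9, 254 and 256 CPM for KO (0.44 ± 0.15, edgeR adjusted p = 0.834), with KO replicate 1 at the level of WT replicate 3. Both products signal through TRAF adaptors to NF-kB. Cd40, the receptor of the non-canonical arm that dendritic cells are best known for, was at 552, 554 and 578 CPM for WT and 522, 533 and 622 CPM for KO (-0.01 ± 0.12).

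Of 30 other components and regulators, 0 were higher and 1 was lower at an unadjusted p under 0.05, beside 2.71% and 3.06% of all genes tested. The median of these 30 genes was 0.00. Nkiras1, a Ras-like protein that binds IkB proteins and slows their loss, was at 8.3, 10.3 and 8.26 CPM for WT and 5.0, 3.56 and 4.67 CPM for KO, with a log2 fold change of -1.03 ± 0.30 (edgeR adjusted p = 0.834). Every KO library lay below every WT library, at 53 to 156 counts per library. The groups did not overlap for 3 of these 30 genes, beside 10.6% of all genes tested. Ube2n, the ubiquitin-conjugating enzyme that works with TRAF6, was at 127 ± 13.6 CPM for WT and 155 ± 29.2 CPM for KO (0.29 ± 0.16). Of 30 NF-kB target genes, 1 (Cd80) was higher and 3 (Cxcl2, Plek and Vcam1) were lower at an unadjusted p under 0.05. Over all genes tested the shares were 2.71% and 3.06%. The median of the 30 target genes was 0.07. Cd80, a co-stimulatory ligand, was at 72.4, 63.3 and 81.1 CPM for WT and 78.1, 129 and 128 CPM for KO (0.63 ± 0.19, edgeR adjusted p = 0.834), and KO replicate 1 stayed at the WT level. Vcam1, an adhesion molecule, was at 145, 121 and 83.0 CPM for WT and 85.8, 50.1 and 39.0 CPM for KO (-0.99 ± 0.31, edgeR adjusted p = 0.834). The libraries with high Cd80 and low Vcam1, KO replicates 2 and 3, are those with the highest scores of the mature CCR7 programme, to which Cd80 belongs. The part of that programme in these values was not tested.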

How the data were processed

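RNA-seq counts were analysed for 3 WT and 3 KO libraries. Trizol RNA was sequenced as paired reads on a NovaSeq, per the labels. The authors deposited raw counts per Ensembl gene, not normalized. HISAT2 2.0.5, HTSeq and mm10 are named in the submitters' processing notes, while no source used here states the annotation, the strand setting or what was done with reads matching several genes. Columns were matched to samples by the library label in each description. GENCODE M21, an annotation of the same build, named 99.8% of the 32285 features.

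The main test, KO against WT, was the quasi-likelihood F test of edgeR 4.0.16 (robust glmQLFit, then glmQLFTest, in R 4.3.3) on the 12568 genes that filterByExpr kept, with TMM factors and Benjamini-Hochberg adjustment over all genes and a threshold of 0.05. The SE is the log2 fold change divided by the square root of F. CPM values are TMM-scaled, log2 CPM used a prior count of 2, and TPM used counts per base of the principal transcript, or the longest where none is marked. The common biological coefficient of variation was 30.1%. Every pair of libraries differed by more than sampling noise. Scaling by RLE or upper quartiles, no filter, 1 CPM in 3 libraries, DESeq2 1.42.0, limma-voom (limma 3.58.1), no robust estimation, a replicate block and leaving out each library served as alternatives. A length offset and merged exon lengths were added after the data were examined.

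The 36 genes, their arms and all lists were chosen with earlier results of these data known. Genes named beyond the 36 were Vps33b, Ccr7, Xcr1 and Cd40 and, of each further pathway list, the 2 with the smallest p. Tlr11, Cxcl2, Plek, Socs2, Clec9a, Itgax and Wdfy4 fall outside this rule and were named after their values were seen, because they make up small counts. Simulated counts for the 12568 genes of this comparison, with 200 changed, were used to check the test, which recovered 24% of those changed 1.5-fold, 58% at 2-fold, 88% at 3-fold and 100% at 4-fold, with 17 false among 152 calls.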

Additional observations from a re-analysis of the deposited data

How the results depend on the processing

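Under each of 15 alternatives 0 of the 36 genes had an adjusted p under 0.05. The smallest adjusted p of any of them ranged from 0.233 (without KO replicate 1) to 1.0. The number with an unadjusted p under 0.05 was 0 to 2 when a library was left out: Map3k7 without WT replicate 2 (-0.37, edgeR adjusted p = 0.745), and Birc2 and Tnfaip3 without KO replicate 1. Over all genes, DESeq2 called 7 and edgeR without a filter 3, and leaving out a library gave 0 to 7. The count at an unadjusted p under 0.05 was 376 to 1621 when a library was left out. The median of the canonical genes was 0.05 and that of the non-canonical genes 0.07 with a length offset, which moved the median of all genes to 0.047. The replicate block called 0 genes and gave medians of 0.00 and 0.02. Deviations of same-numbered libraries correlated at 0.01, 0.03 and 0.00, and not every library correlated best with its own number, so the numbers were not taken as pairs.

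Of the 36 genes, 17 kept 1 sign under the 15 alternatives and 19 did not, none of these 19 beyond 0.15 with all libraries. Chuk and Traf6, both at 0.00, were at -0.01 with RLE scaling, upper-quartile scaling, the filter of 1 CPM or DESeq2, and at 0.00 without a filter, as was Chuk with limma-voom and the block. With a length offset Nfkb1 was at 0.05, Ikbkb at 0.06, Tbk1 and Traf3 at 0.00, Ripk1 at 0.04, Otulin at -0.02 and Cd40 at 0.01. Leaving out a library gave -0.24 to 0.02 for Nfkb1, -0.04 to 0.11 for Nfkb2, -0.01 to 0.11 for Rela, 0.00 to 0.10 for Relb, -0.09 to 0.08 for Nfkbia, -0.02 to 0.13 for Nfkbib, -0.24 to 0.00 for Bcl3, -0.06 to 0.04 for Chuk, -0.20 to 0.01 for Ikbkb, -0.16 to 0.06 for Tbk1, -0.37 to 0.03 for Map3k7, -0.09 to 0.13 for Map3k14, -0.01 to 0.11 for Traf2, -0.10 to 0.13 for Traf5, -0.05 to 0.06 for Traf6, -0.20 to 0.03 for Ripk1, -0.01 to 0.24 for Rnf31, -0.07 to 0.08 for Otulin and -0.10 to 0.04 for Cd40.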
